A study of Mus musculus with 4 samples.

Results

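The noncoding RNAs described here are the transcripts of 9 mouse genes that carry small nucleolar RNAs (snoRNAs) in their introns: Gas5, Snhg1, Snhg3, Snhg5, Snhg6, Snhg7, Snhg8, Snhg11 and Snhg12. They were taken by symbol from the tables of 23259 genes, with earlier results of these data known. All 9 were present, and all 9 had a mean of at least 1 FPKM (fragments per kilobase of transcript, scaled for sequencing depth) over the 4 libraries, as did 11932 genes in all. RNA was sequenced from 4 clones of male mouse embryonic stem cells derived from Gcn5flox/flox blastocysts, to see how expression changed without Gcn5, the histone acetyltransferase encoded by Kat2a. Each of founder lines 4 and 6 gave 1 WT clone and 1 KO clone. The KO clones were picked from cells sorted as GFP-positive after transient transfection with a vector for EGFP and Cre, and had lost Gcn5 exons 3 to 18 on both alleles. The WT clones came from the GFP-negative cells of the same transfections and kept the floxed exons. Each library is therefore a single clone, replicate 1 of each genotype is line 4 and replicate 2 is line 6. All were grown with serum and LIF on feeder fibroblasts, and the RNA was total RNA depleted of ribosomal RNA.

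A snoRNA host gene is transcribed and spliced like any other gene, and its snoRNAs are trimmed out of the excised introns. C/D snoRNAs guide 2'-O-methylation and H/ACA snoRNAs guide pseudouridylation, mostly of ribosomal RNA. The spliced exons that remain form the host transcript. In several noncoding hosts, Gas5 and Snhg1 among them, these exons hold no long reading frame and the transcript starts with a 5' terminal oligopyrimidine (5'TOP) tract, the element through which growth signals control the translation of ribosomal protein mRNAs. Such transcripts are known to be short-lived because their translation ends early and triggers nonsense-mediated decay. Gas5 is named for its accumulation in growth-arrested cells.

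The start regions of 6 hosts are shown, those in which TATA, searched after the sequences had been looked at, was found. Some of them also hold a pyrimidine run at the start. They come from RefSeq's GRCm38.p6 annotation (the files were made on mm9), which had promoter windows for 8 of the 9 hosts, and run from 50 bases before to 50 bases from the annotated first base. Capitals mark TATA where it starts 40 to 20 bases before that base, and a C followed by at least 4 pyrimidines that starts within 5 bases of it.
Gas5, the second of 2 annotated starts, chr1:161035116-161035215, plus strand: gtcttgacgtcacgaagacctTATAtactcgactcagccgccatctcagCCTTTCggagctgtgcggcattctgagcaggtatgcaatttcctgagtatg
Snhg1, chr19:8723437-8723536, plus strand: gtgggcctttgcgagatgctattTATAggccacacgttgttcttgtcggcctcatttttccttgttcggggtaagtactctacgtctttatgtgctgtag
Snhg5, chr9:88522848-88522947, minus strand: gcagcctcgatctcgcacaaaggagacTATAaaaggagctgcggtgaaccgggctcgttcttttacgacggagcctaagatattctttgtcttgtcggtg
Snhg7, chr2:26640195-26640294, minus strand: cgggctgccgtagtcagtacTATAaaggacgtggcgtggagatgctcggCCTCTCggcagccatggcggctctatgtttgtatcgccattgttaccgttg
Snhg8, chr3:123508287-123508386, minus strand: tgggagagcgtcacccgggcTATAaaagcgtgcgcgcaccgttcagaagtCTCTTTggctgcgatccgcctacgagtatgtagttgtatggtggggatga
Snhg12, chr4:132308628-132308727, plus strand: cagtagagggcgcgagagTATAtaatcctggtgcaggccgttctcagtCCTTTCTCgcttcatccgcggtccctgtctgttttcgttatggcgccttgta

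The pyrimidine run was present in 5 of the 8 hosts with a window (Gas5, Snhg3, Snhg7, Snhg8 and Snhg12), against 18.3% of all 32851 windows. Where the run had to begin at the annotated first base itself, 3 of the 8 hosts held it (Gas5, Snhg7 and Snhg8), against 2.51% of windows. TATA, searched after the sequences had been looked at, started in its window in 6 of 8 hosts (Gas5, Snhg1, Snhg5, Snhg7, Snhg8 and Snhg12), against 5.81% of all windows. The E-box CACGTG, a palindrome that Myc and its partner Max can bind, was in 0 of the 8 hosts over the whole window of 250 bases before to 50 bases from the start, and in 7.15% of all windows. Windows of 1 gene overlap in part, and a letter match is a description of the annotated start, not a bound site. In Snhg1 the pyrimidines next to the start are broken by an A.

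The hosts carry between 1 and 10 annotated snoRNA gene models each. On GENCODE M21, Gas5 spans 10 (Mir5117, typed as a snoRNA, among them) and Snhg1 spans 8, Snhg12 spans 5 and Snhg7 spans 3, Snhg3, Snhg5 and Snhg11 span 2 each, and Snhg6 and Snhg8 span 1 each (the span of Snhg7 was taken from RefSeq). Of these snoRNAs, 10 named ones, from 6 hosts, also have entries of their own in the deposited files. The following are shown because they are the guide RNAs that these introns release, and because their own values are set beside those of the hosts further on. The sequences are DNA letters from GENCODE's transcripts, and capitals mark TGATGA (box C) and the last CTGA (box D) in C/D snoRNAs and ACA 3 bases before the end in H/ACA snoRNAs.
Snord87, in Snhg6: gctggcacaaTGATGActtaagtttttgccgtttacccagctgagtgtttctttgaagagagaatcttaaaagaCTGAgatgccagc
Snord47, in Gas5: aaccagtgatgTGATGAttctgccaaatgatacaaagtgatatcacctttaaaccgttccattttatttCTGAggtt
Snord99, in Snhg12: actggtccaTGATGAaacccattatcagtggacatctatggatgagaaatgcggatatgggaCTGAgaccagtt
Snora61, in Snhg12: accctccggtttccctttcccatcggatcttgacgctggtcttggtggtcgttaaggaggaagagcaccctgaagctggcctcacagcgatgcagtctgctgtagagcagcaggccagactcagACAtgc
Snora24, in Snhg8: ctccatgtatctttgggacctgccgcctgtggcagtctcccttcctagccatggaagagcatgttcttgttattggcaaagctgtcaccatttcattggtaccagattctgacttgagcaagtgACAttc

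TGATGA with a CTGA after it was found in 75.5% of the 98 named C/D genes of GENCODE M21, and ACA at that distance from the end in 83.3% of the 42 named H/ACA genes. Snord22, the named snoRNA of Snhg1, holds no TGATGA in its annotated sequence.

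The summed FPKM of all genes lay between 520491 and 757931 per library, and depth is unknown because the files give no counts. Kat2a stood at 38.7 and 34.4 FPKM in WT of lines 4 and 6 and at 11.5 FPKM in each KO library. The stem cell label was borne out by all 10 markers looked at, with Pou5f1 between 454 and 782 FPKM and Nanog between 83.4 and 160 FPKM. These markers were also listed lower in KO, by a median of -0.62 in line 4 and -0.27 in line 6 on the log2(FPKM + 1) scale, and 9 of the 10 lay below the median gene in both lines, as did 27.1% of tested genes. All 12 fibroblast markers were also above the value of silent genes, and their summed FPKM was 360 and 243 in WT and KO of line 4 and 262 and 313 in WT and KO of line 6. Of the 11 that were tested, 11 were lower in KO in line 4 and 0 in line 6, against 97.6% and 87.7% of tested genes. The part of feeder RNA in the values that follow was not tested. In RNA from whole cultures fewer expressing cells and less RNA per cell cannot be told apart.

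Snhg1 was by far the most abundant of the 9 hosts. Since FPKM is per length, levels can be set side by side, and Snhg1 stood at 689 and 496 FPKM in WT and KO of line 4 and at 664 and 535 FPKM in WT and KO of line 6. This placed it between rank 168 and rank 177 of all 23259 genes in each library. It made up 43.8% to 47.9% of the summed FPKM of the 9 hosts, and that sum was 0.201% to 0.214% of the summed FPKM of all genes. Snhg1 lay 3.87-fold above the next host by the mean over the 4 libraries, 596 ± 94.8 FPKM against 154 ± 52.9 FPKM (SD, n = 4 libraries of 2 genotypes) for Snhg6, and their ranges did not overlap.

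Between Snhg1 and the lowest host lay 7 transcripts whose ranges joined without a gap. In order of their means over 4 libraries they were Snhg6 (154 FPKM), Snhg3 (144), Gas5 (115), Snhg12 (97.7), Snhg5 (79.8), Snhg7 (54.1) and Snhg8 (45.9). Each neighbour in this order overlapped the next, so their ranges over the 4 libraries, which the hosts share, did not separate them. Within single libraries the order held in 4 of 4 libraries for each neighbouring pair except Gas5 over Snhg12 and Snhg7 over Snhg8, which held in 3 of 4. Snhg11 stood apart at 1.68, 1.16, 1.48 and 1.29 FPKM in WT and KO of line 4 and WT and KO of line 6, below Snhg8 by 32.8-fold. It is a host best known from neurons, and its rank lay between 11214 and 11242 in these cells. GENCODE M21 types Snhg11 as protein-coding and RefSeq as noncoding.

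**Figure D1:**
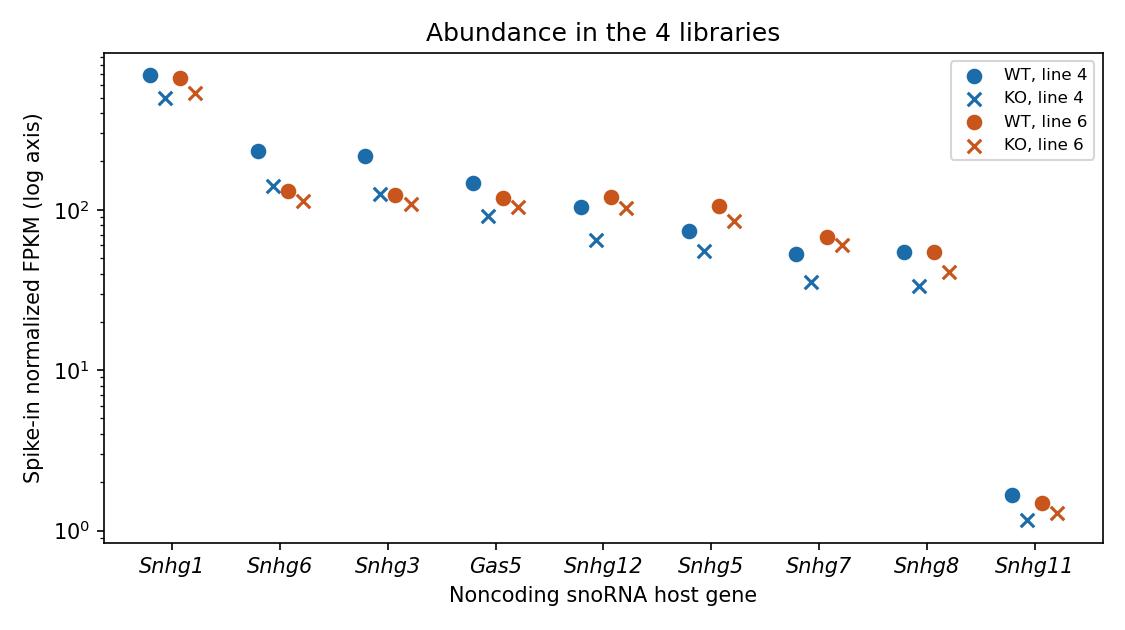
Spike-in normalized FPKM (log axis) of each noncoding snoRNA host in the 4 libraries, ordered by mean; circles are WT, crosses are KO, blue is line 4 and orange is line 6, with 1 library per point. Snhg1 lies at 496 to 689 FPKM, Snhg11 at 1.16 to 1.68 FPKM, and the 7 others run from 33.6 to 232 FPKM.

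The balance between hosts was listed differently in the 2 founder lines, in both genotypes. Whether it passed the test hung on the scaling and on whether genotype was a term. Snhg5, Snhg7 and Snhg12 were listed higher in line 6 and Snhg3 and Snhg6 lower, while Gas5, Snhg1, Snhg8 and Snhg11 differed by at most 0.14 on the log2(FPKM + 1) scale by the line means. On the scale as deposited none of the 9 passed limma's test of line 6 against line 4, in which 1.98% of all tested genes were called, 113 higher and 123 lower in line 6. The count was also 0 of 9 at an unadjusted p under 0.05, which 8.62% of genes reached. When each library was centred on its median gene, 5 of the 9 passed, against 30.2% of all tested genes. Of these 5, 3 were higher in line 6 and 2 lower, against 16.4% and 13.8% of genes. With genotype as a term and values as deposited, 2 of the 9 passed (Snhg5 and Snhg6), against 9.13%. A robust spread added Snhg3 and Snhg7, against 9.19%. With quantile normalization, or with the genotype term on centred values, 5 passed, against 32.4% and 29.6%. Without overlap between lines were 4 of the 9, as were 33.7% of tested genes. Fibroblast markers moved with this comparison too: with genotype as a term, 5 of 11 passed, with Col3a1, Postn and Dcn lower in line 6 and Acta2 and Tagln higher.

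Snhg5, the host of Snord50a and Snord50b, was listed at 73.6 and 55.0 FPKM in WT and KO of line 4 and at 106 and 84.9 FPKM in WT and KO of line 6. Both line 6 clones exceeded both line 4 clones, as in 16.3% of tested genes. Line 6 exceeded line 4 by a log2 fold change of 0.57 (SE 0.36, limma adjusted p = 0.752), 0.61 on centred values (adjusted p = 0.00589) and 0.57 with genotype as a term (adjusted p = 0.0406). It was 0.36 as deposited when the KO clone of line 4 was left out. Here, and in the line fits below without a clone of line 4, that line has 1 genotype. The general difference of KO from WT then enters.

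Snhg7, which carries the H/ACA snoRNAs Snora17 and Snora43, stood at 52.9 and 35.4 FPKM in WT and KO of line 4 and at 67.3 and 60.6 FPKM in WT and KO of line 6, again without overlap. The log2 fold change came to 0.55 (SE 0.35, limma adjusted p = 0.766), 0.59 on centred values (adjusted p = 0.00444), and 0.55 with genotype as a term (adjusted p = 0.0581, or 0.0476 with a robust spread). The WT clones differed by 0.34 and the KO clones by 0.76. Without the KO clone of line 4 the fold change as deposited was 0.27, and without the WT clone of line 4 it was 0.83.

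Snhg12, in whose introns lie Snora16a, Snora44, Snora61 and Snord99, was listed at 104 and 65.2 FPKM in WT and KO of line 4 and at 119 and 102 FPKM in WT and KO of line 6. The lines overlapped narrowly, as the KO clone of line 6 fell just under the WT clone of line 4. On centred values Snhg12 passed at a log2 fold change of 0.46 (limma adjusted p = 0.0145), but neither as deposited (0.42, SE 0.36, adjusted p = 0.945) nor with genotype as a term (adjusted p = 0.163). As deposited it came to 0.09 without the KO clone of line 4 and to 0.75 without the WT clone of line 4.

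Snhg6 and Snhg3 went the other way. Snhg6, the host of Snord87, was listed at 232 and 141 FPKM in WT and KO of line 4 and at 131 and 113 FPKM in WT and KO of line 6. Snhg3, the host of the pair of U17 snoRNAs Snora73a and Snora73b, was listed at 217 and 126 FPKM in WT and KO of line 4 and at 123 and 109 FPKM in WT and KO of line 6. In both genes the WT clone of line 4 stood far above the other 3 clones, and both line 6 clones lay below both line 4 clones, as in 17.4% of tested genes.

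For Snhg6 the log2 fold change of line 6 against line 4 was -0.57 (SE 0.37, limma adjusted p = 0.772), with adjusted p = 0.0133 on centred values and 0.0294 with genotype as a term. For Snhg3 it was -0.51 (SE 0.37, adjusted p = 0.849), with adjusted p = 0.0272 on centred values and 0.0607 with genotype as a term (0.0452 with a robust spread). Without the WT clone of line 4 these log2 fold changes were -0.21 and -0.12, and without the KO clone of line 4 they were -0.92 and -0.90. Such a fit leaves line 4 with 1 genotype, so it also takes in the general difference of KO from WT. Relative to the median gene, line 6 differed from line 4 by -0.68 and -0.67 between the WT clones. Between the KO clones these relative differences were -0.43 and -0.33, so they were smaller there but of the same sign. The genes lie on chromosomes 1 and 4. The ratio of Snhg6 to Snhg3 was 1.06 and 1.12 in WT and KO of line 4. It was 1.06 and 1.04 in WT and KO of line 6. How many pairs of genes hold so steady a ratio was not tested.

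Gas5 and Snhg1, the hosts with the most snoRNAs, showed no steady difference between lines. Gas5 was listed at 148 and 91.3 FPKM in WT and KO of line 4 and at 119 and 104 FPKM in WT and KO of line 6, so line 6 was lower in WT and higher in KO. Its log2 fold change over the lines was -0.06 (SE 0.36) and that of Snhg1 was 0.03 (SE 0.41), with limma adjusted p = 0.999 for both. Snhg8 had 0.14 (SE 0.35) and Snhg11 -0.01 (SE 0.24), with the same adjusted p.

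**Figure D2:**
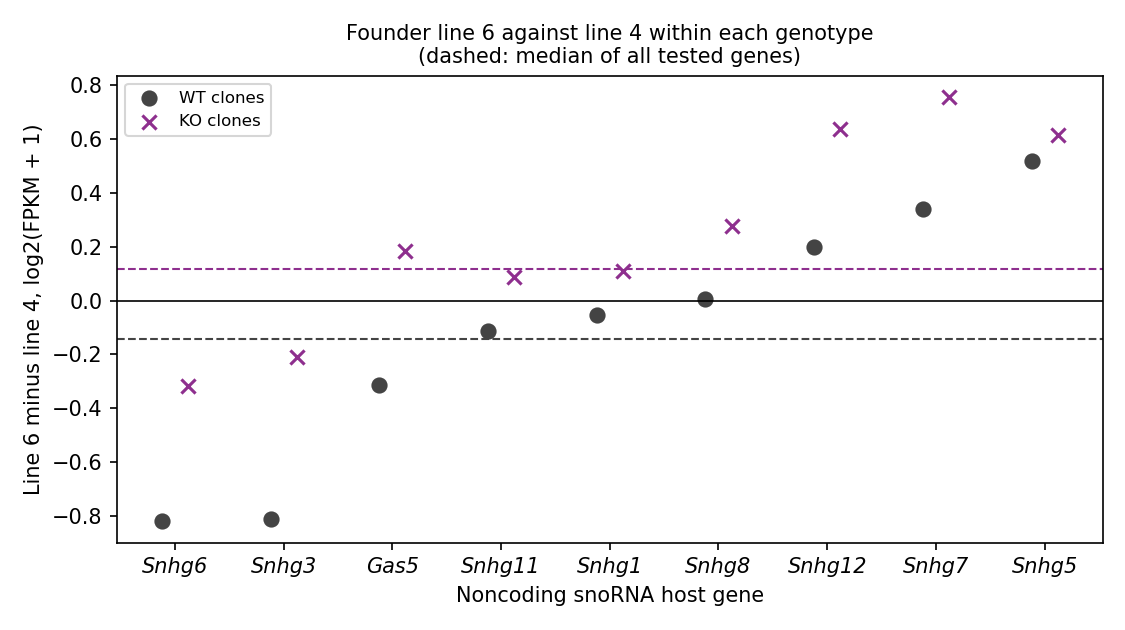
Difference of line 6 from line 4 in log2(FPKM + 1) for each host, with WT clones as grey circles and KO clones as purple crosses, ordered by the mean of the pair; dashed lines are the medians of all tested genes, -0.14 in WT and 0.12 in KO. Snhg6 and Snhg3 lie below 0 and Snhg12, Snhg7 and Snhg5 above 0 in both genotypes.

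In either founder line all 9 hosts had less FPKM in KO than in WT, with the larger difference in line 4. So did most genes. KO was the lower in 97.6% of tested genes for line 4, in 87.7% for line 6 and in 86.3% for both. The KO to WT difference was lower in line 4 than in line 6 in 89.0%. The scaling to spike-ins sets the level of these differences, and how it was done is not known. No host passed limma's test of KO against WT on 2 clones each, in which 0.0168% of tested genes were called. At an unadjusted p under 0.05, reached by 5.54% of genes, 1 of the 9 was counted, Snhg8. With the founder line as a block 0 of the 9 passed, against 0.796% of genes. It was also 0 with the block on centred values (0.277% of genes), with a robust spread beside the block (0.763%) and without the WT clone of line 6 (1.11%).

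In line 4 the hosts were split: Gas5, Snhg3, Snhg6, Snhg7, Snhg8 and Snhg12 lay under the lower quartile of all tested genes, and Snhg1, Snhg5 and Snhg11 did not. The median over the 9 was -0.66 on the log2(FPKM + 1) scale, where that of all tested genes was -0.44 with quartiles at -0.54 and -0.34, and where the median over genes of 20 FPKM or more was -0.48. Of the 9, 7 lay below the median gene (50.0% of genes do by construction), and 5 were at or under the inverse of 1.5-fold in KO, as were 16.1% of tested genes. These 5 were Gas5, Snhg3, Snhg6, Snhg8 and Snhg12, with KO at 0.619, 0.579, 0.608, 0.617 and 0.628 of WT in FPKM. Only 1 clone of each genotype stands behind this comparison, so it has no replicate check.

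In line 6 the hosts lay close to the bulk of the genes. Their median difference was -0.21, beside -0.19 for all tested genes and -0.23 for those of at least 20 FPKM, with 6 of the 9 below the median gene and 0 past 1.5-fold, where 1.5% of genes were. With quantile normalization, which forces the libraries to 1 distribution, the median of the hosts in line 6 was 0.043, above 0 in 7 of 9, and in line 4 it was -0.17.

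Snhg8 stood nearly equally far from the median gene in both lines. The WT clones of lines 4 and 6 held 54.4 and 54.7 FPKM and the KO clones 33.6 and 40.9 FPKM, so the genotypes did not overlap. The WT mean was 54.6 ± 0.182 FPKM and the KO mean 37.3 ± 5.16 FPKM (SD, n = 2), a ratio of 0.683. On the log2 scale KO differed from WT by -0.54 (SE 0.22, limma adjusted p = 0.445), below WT in 2 of 2 lines, and by -0.24 on centred values (adjusted p = 1.00). Set against the median gene, its difference was -0.23 in line 4 and -0.22 in line 6.

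For Gas5 the WT mean was 133 ± 20.5 FPKM and the KO mean 97.6 ± 8.88 FPKM (SD, n = 2), with a log2 fold change of -0.44 (SE 0.21, limma adjusted p = 0.445). That value was -0.28 without the WT clone of line 4, -0.13 on centred values and -0.06 with quantile normalization. Relative to the median gene Gas5 lay at -0.24 in line 4 and at -0.01 in line 6. For Snhg1 the WT mean was 676 ± 18.3 FPKM and the KO mean 516 ± 27.7 FPKM (SD, n = 2), with a log2 fold change of -0.39 (SE 0.19, adjusted p = 0.445). It lay at -0.03 and -0.12 relative to the median gene, and its fold change was -0.09 on centred values and turned sign with quantile normalization, at 0.019. Gas5, Snhg1, Snhg8, Snhg11 and Snhg12 had both KO clones below both WT clones, as had 59.8% of tested genes.

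Snhg3 and Snhg6 had the largest and second largest differences in line 4, -0.78 and -0.71, and differences close to the median gene in line 6, -0.18 and -0.21. The clone of line 4 that carried their high levels is the WT clone, so the KO difference in line 4 and the difference between lines share that library. Over all 4 libraries the log2 fold changes of KO against WT were -0.48 for Snhg3 and -0.46 for Snhg6 (limma adjusted p = 0.445 for both). Without the WT clone of line 4 they were -0.08 and -0.05, and without the WT clone of line 6 they were -0.89 and -0.87. Either fit leaves WT with 1 line, so it also takes in the difference between lines.

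Among the others, Snhg12 showed log2 differences of -0.66 and -0.23 in lines 4 and 6, Snhg7 had -0.56 and -0.15, and Snhg5 had -0.41 and -0.31. Their fold changes over both lines were -0.44, -0.36 and -0.36 (limma adjusted p = 0.445 for each). Leaving out the KO clone of line 4 brought these to -0.13, 0.02 and -0.06. Leaving out the KO clone of line 6 brought them to -0.76, -0.74 and -0.67. Either fit leaves KO with 1 line, so it also takes in the difference between lines. Snhg11, at its low level, had -0.31 and -0.11, where adding 1 FPKM compresses the change. Its KO clones stood at 0.691 and 0.876 of WT in FPKM.

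**Figure D3:**
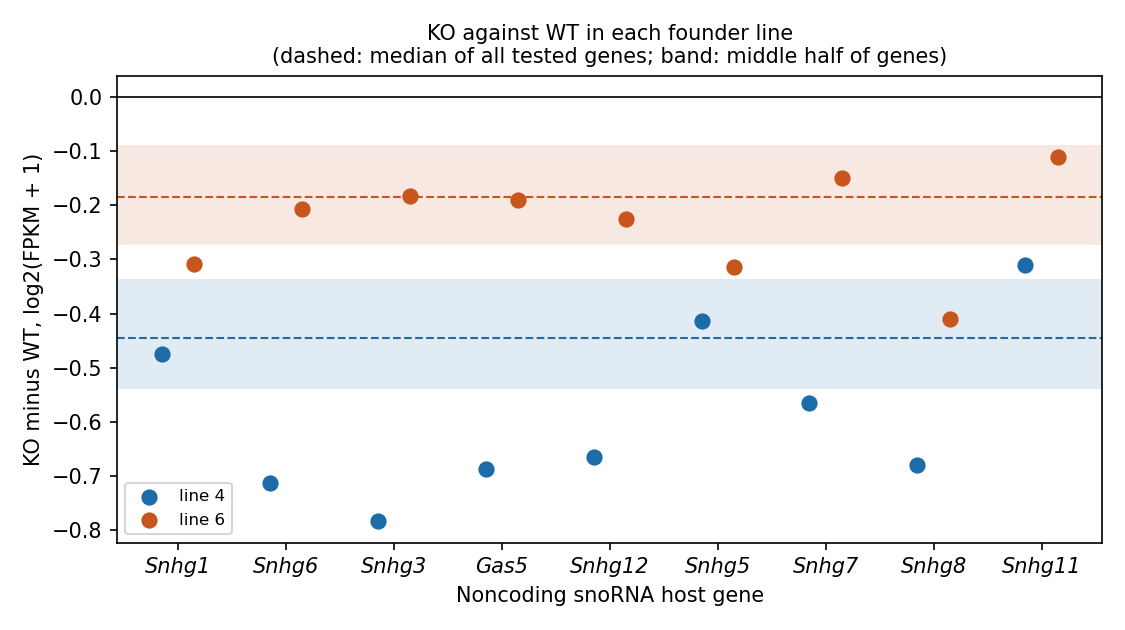
Difference of KO from WT in log2(FPKM + 1) for each host in line 4 (blue) and line 6 (orange), with 1 pair of clones per line; dashed lines are the medians of all tested genes, -0.44 and -0.19, and bands run between their quartiles. In line 4, 6 of the 9 hosts lie below the band, and in line 6 Snhg1, Snhg5 and Snhg8 do.

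Each snoRNA entry inside a host was set beside that host between lines. The 10 pairs come from 6 hosts and the same 4 libraries, and in several of them a value is close to 0, as for Snora43, Snhg1 and Gas5. Snord87 was listed at 281 and 160 FPKM in WT and KO of line 4 and at 164 and 130 FPKM in WT and KO of line 6, close to the pattern of Snhg6. Its log2 fold change of line 6 against line 4 was -0.54, beside -0.57 for the host (limma adjusted p of Snord87 = 0.828, 0.0342 on centred values and 0.0422 with genotype as a term). Snora17 was listed at 61.1 and 41.7 FPKM in WT and KO of line 4 and at 93.3 and 69.6 FPKM in WT and KO of line 6. At 0.66 (adjusted p = 0.625, 0.00665 on centred values and 0.0125 with genotype as a term), it matched Snhg7 at 0.55, whereas Snora43 of the same host had 0.02 (adjusted p = 0.999, or 0.713 on centred values).

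Within Snhg12, Snora16a and Snora44 had log2 fold changes of 0.52 and 0.45 between lines, beside 0.42 for the host, and Snora61 and Snord99 had 0.34 and 0.13 (limma adjusted p of 0.802 to 0.999). On centred values Snora16a and Snora44 passed (adjusted p = 0.00985 and 0.00785) and Snora61 and Snord99 did not (0.158 and 0.18). Between KO and WT, Snora61 was the 1 entry of 10 that passed with the founder line as a block, as did 0.796% of tested genes. Its values were 220 and 111 FPKM in WT and KO of line 4 and at 232 and 170 FPKM in WT and KO of line 6 (log2 fold change -0.71, adjusted p = 0.445, and 0.0201 with the block). The snoRNA entry lay further below WT in KO than its host did in 8 of 10 pairs in line 6 and in 6 of 10 in line 4. FPKM of a snoRNA entry divides by a length of at most 139 bases, and reads of an unspliced host intron cover the same bases, so its value cannot be told apart from that of the host's precursor.

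**Figure D4:**
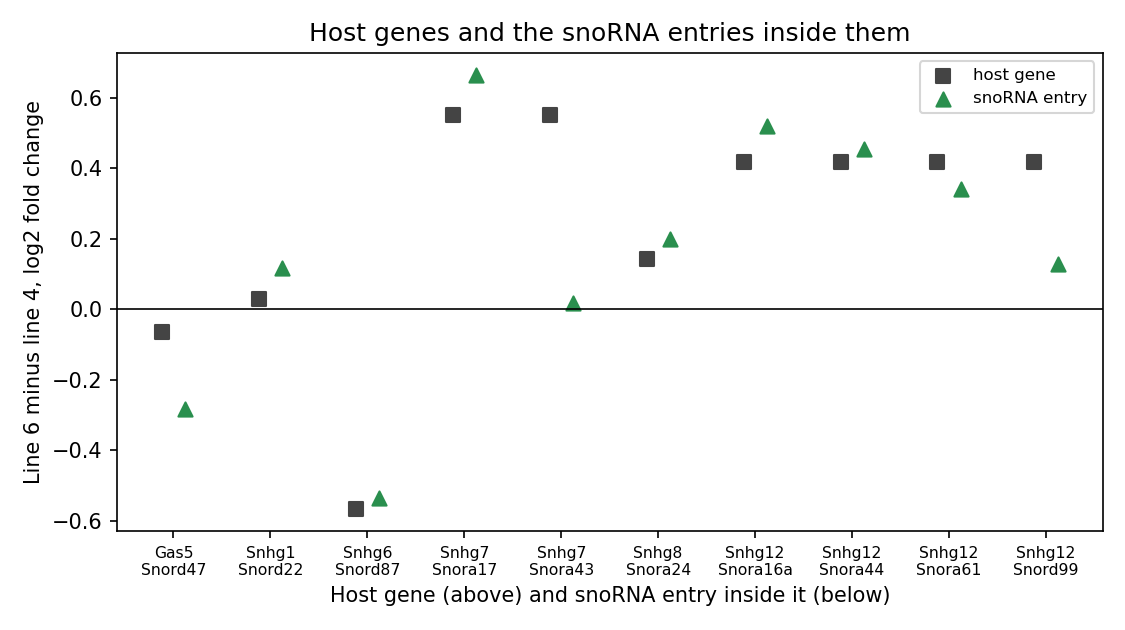
Log2 fold change of line 6 against line 4 for each snoRNA entry (green triangles) beside its host gene (dark squares), over 2 clones per line. Values run from -0.57 for Snhg6 with -0.54 for Snord87 to 0.55 for Snhg7 with 0.66 for Snora17.

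Genes next to the hosts kept the order of their neighbour between lines in some cases and reversed it in others. Rcc1, which lies beside Snhg3 on the same strand and encodes the exchange factor for Ran, stood at 76.3 and 53.7 FPKM in WT and KO of line 4 and at 87.8 and 77.7 FPKM in WT and KO of line 6, the reverse order to that of Snhg3 (limma adjusted p = 0.986 as deposited and 0.00949 when centred). The ratio of Snhg3 to Rcc1 was 2.85 and 2.35 in WT and KO of line 4 and 1.41 and 1.40 in WT and KO of line 6. Syncrip, an RNA-binding protein gene next to Snhg5, shared the order of its neighbour, at 31.4 and 22.4 FPKM in WT and KO of line 4 and 45.1 and 40.1 FPKM in WT and KO of line 6. It passed on centred values (limma adjusted p = 0.00275) but not as deposited (0.605), and the ratio of Snhg5 to Syncrip stayed between 2.12 and 2.46.

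Slc3a2, an amino acid transporter subunit gene that lies beside Snhg1 on the opposite strand, was listed at 111 and 67.3 FPKM in WT and KO of line 4 and 96.5 and 79.7 FPKM in WT and KO of line 6, and Snhg1 exceeded it by 6.24-fold to 7.37-fold. Wdr74, on the other side of Snhg1, stood at 85.8 and 62.8 FPKM in WT and KO of line 4 and at 108 and 100.0 FPKM in WT and KO of line 6 (adjusted p = 0.857, and 0.00511 on centred values). Zbtb37 overlaps Gas5 and Mcmdc2 overlaps Snhg6 in RefSeq. Both lay far below the hosts they overlap, between 0.754 and 1.71 FPKM over the 4 libraries. No source used here says whether strand was used in the counting. Trnau1ap, beside Snhg12, had a mean of 23.4 FPKM over the 4 libraries, and Cenpl beside Gas5, Phactr4 beside Snhg3, Sgk3 beside Snhg6, Dipk1b beside Snhg7 and Snhg17 and Ralgapb beside Snhg11 had means of 2.50, 2.12, 1.80, 6.29, 11.8 and 9.56 FPKM.

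Of 10 other noncoding hosts, found in part under older symbols, 10 had lower FPKM in KO in both lines, as had 86.3% of tested genes, with a median difference of -0.49 for line 4 and -0.19 for line 6 (the median gene stood at -0.44 and -0.19). None of the 10 passed either test as deposited (0.0168% and 1.98% of genes did). On centred values 3 of the 10 passed the test of line 6 against line 4, against 30.2% of genes. Both line 6 clones lay above both line 4 clones in 1 of the 10 and below them in 2, against 16.3% and 17.4% of genes. Zfas1 was the most abundant, at 209 and 152 FPKM in WT and KO of line 4 and 144 and 119 FPKM in WT and KO of line 6, and like Snhg3 and Snhg6 it was listed lower in line 6 (log2 fold change -0.45, limma adjusted p = 0.924). Snhg15 was listed at 80.0 and 44.6 FPKM in WT and KO of line 4 and 63.4 and 58.4 FPKM in WT and KO of line 6. Snhg4 lay between 23.7 and 31.9 FPKM. The entry used for Snhg14 is a fragment of that long transcript.

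Protein-coding snoRNA hosts include many ribosomal protein and translation factor genes, which also carry a 5'TOP tract. Of 31, 31 were lower in KO in both lines and 29 lay below the median gene in both, as did 27.1% of tested genes and 5 of the 9 noncoding hosts. Their medians were -0.59 in line 4 and -0.35 in line 6, so in line 6 they lay further below the median gene (-0.17) than the 9 noncoding hosts did (-0.02). None passed the test of KO against WT. With the founder line as a block Rps12, Tpt1 and Eef1b2 passed, against 0.796% of tested genes (log2 fold changes -0.57, -0.60 and -0.67, limma adjusted p = 0.0355, 0.0359 and 0.0191). Rps12, the most abundant, was listed at 5037 and 3044 FPKM in WT and KO of line 4 and 4334 and 3235 FPKM in WT and KO of line 6. Rps2 and Rpl12 followed, with log2 fold changes of -0.51 and -0.55 (adjusted p = 0.445 for both). Between lines, with genotype as a term, Eif4a2 was lower in line 6 (log2 fold change -0.77, adjusted p = 0.000597, and 0.562 without the term) and Hspa8 higher (0.51, adjusted p = 0.0214, and 0.960 without the term).

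Factors of nonsense-mediated decay and of snoRNA assembly had median differences close to that of the median gene. Of 18 decay genes, 17 were lower in KO in both lines, as were 86.3% of tested genes. Their medians were -0.45 and -0.16 in lines 4 and 6, which is -0.01 and 0.03 once the median gene is taken off. Their most abundant members were Eif4a3, a core protein of the exon junction complex, with a log2 fold change of -0.33, the release factor Etf1 with -0.34 and Magoh with -0.33 (limma adjusted p = 0.445 for each). Of 18 snoRNP and assembly genes, 17 were lower in both lines, with medians of -0.48 and -0.25. Ruvbl2, an ATPase of the assembly machinery, and the box C/D core proteins Nop56 and Nop58 differed by -0.44, -0.39 and -0.51 on the log2 scale (adjusted p = 0.445 for each). Neither list had a member past either test. On centred values 8 of the 18 snoRNP genes and 5 of the 18 decay genes were called higher in line 6, against 16.4% of tested genes, and 1 decay gene lower.

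The mean pattern of the 9 hosts over the 4 libraries, taken as each gene's log2 value less its own mean, was 0.26 and -0.32 in WT and KO of line 4 and 0.15 and -0.09 in WT and KO of line 6. The tested genes nearest to it were Slc9a8, Ppig, Wdr38 and Polr2g, at root mean square distances of 0.0058 to 0.0068 log2 units over 4 libraries. Polr2g, a subunit of RNA polymerase II, was listed at 106 and 69.1 FPKM in WT and KO of line 4 and 97.2 and 82.6 FPKM in WT and KO of line 6. In all, 622 genes lay within 0.05 of the mean pattern, so the likeness sets few genes apart.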

How the data were processed

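RNA sequencing of 4 clones gave 1 table each. The authors deposited FPKM normalized to spike-ins, per the file headers. The submitters' processing notes name Bowtie 0.12.8, TopHat2 2.0.9, affy, HTSeq, edgeR and the build mm9 and give no roles. No source used here says how the scaling was done. It sets the level of every KO to WT difference.

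Each table held 23376 entries, of which 92 spike-ins and 25 entries without a partner of the same name were left out. Tests used log2(FPKM + 1), a scale that understates changes of low genes. A gene was kept when its 4 libraries averaged 1 FPKM or more, and was tested with limma 3.58.1 in R 4.3.3 (trend, two-sided, Benjamini-Hochberg over all tested genes, threshold 0.05), for KO against WT and for line 6 against line 4. The fits were tested on simulated data. Alternatives changed the pseudocount, filter, scaling, spread, block and libraries. In the line fit and with the block the prior df came out infinite, so those p-values rest on the spread typical of a gene's level.

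WT and KO of 1 replicate number come from the same founder line, per the labels, so the numbers pair the samples. Deviations of same-numbered clones correlated at r = 0.70 across genes, which are not independent. P-values rest on the spread between single clones, and draw on the gene's own spread only where the prior df is finite. In the KO against WT fit without a block, that spread includes the difference between founder lines. In the line fit without a genotype term, it includes the difference between genotypes.

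The hosts and lists were chosen with earlier results of these data known. Named genes are the hosts, up to 3 members of each list by highest mean FPKM and those past a test, RefSeq neighbours of at least 1 FPKM, Kat2a, and 4 genes of the nearest pattern. Snhg15, Snhg16, Snhg17, Snhg18, Snhg20, Snhg14 and Zfas1 were found under older symbols.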

Additional observations from a re-analysis of the deposited data

Results flagged for a closer look

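Differences of 3 hosts pointed in opposite directions in the WT and the KO clones when line 6 was compared with line 4. In log2(FPKM + 1), Gas5 had -0.31 in WT and 0.18 in KO, Snhg1 had -0.055 and 0.11, and Snhg11 had -0.11 and 0.088. Relative to the median gene, KO against WT pointed in opposite directions in the 2 lines for 3 other hosts. Snhg3 had -0.34 in line 4 and 0.0022 in line 6, Snhg5 had 0.032 and -0.13, and Snhg7 had -0.12 and 0.035. Each value is a difference between 2 single libraries, so whether these differences differ was not tested.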

How the results depend on the processing

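No host passed the test of KO against WT under any of the alternatives. Over all genes, limma called 2, and 0 without a filter, on centred values or with quantile normalization. It called 95 with the replicate block, 33 with that block once values were centred, 91 with the block and a robust spread (added after seeing the data), and 0 to 133 without single libraries. Snhg11 lay at 0.095 on centred values, with or without the block, Snhg1 at 0.019 with quantile normalization, and Snhg7 ran from -0.74 to 0.021 without single libraries. The replicate block changed no call of a host.

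Between lines limma called 236 genes, and 0 without a filter, 3602 on centred values, 3865 with quantile normalization, 1089 with genotype as a term, 3531 with that term on centred values, 1096 with it and a robust spread (added after seeing the data), and 7 to 1607 without single libraries. Of the hosts 0 passed as deposited, 5 on centred values, with quantile normalization and with the genotype term on centred values, 2 with that term and 4 with it and a robust spread. Snhg11 lay at 0.029 on centred values, with or without the term, and at 0.00065 with quantile normalization. Without single libraries Gas5 ran from -0.41 to 0.28, Snhg1 from -0.21 to 0.26, Snhg8 from -0.20 to 0.48 and Snhg11 from -0.17 to 0.14. With 1 library left out, the lone clone of a group is assumed to vary like the others. Such a fit also mixes the difference between lines with that between genotypes.

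The median KO to WT difference of the hosts in line 4 was -0.20 on centred values and -0.17 with quantile normalization, and in line 6 it was 0.043 with the latter. Their median percentile of FPKM was 93.1 among tested genes and 96.5 among all. The causes were not tested beyond what each setting does by construction.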
